A study of Homo sapiens with 6 samples.

Results

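MLT1 elements are old long terminal repeat (LTR) retrotransposons of the mammalian apparent LTR retrotransposon (MaLR) group. Here they were taken as every counted repeat locus whose repeat name begins with MLT1, after removal of the copy number and running number that end each locus name. This gave 16229 of the 433837 loci in the count tables, under 56 repeat names. Of these loci, 7152 were LTRs of MLT1A to MLT1D (6 names), 8336 were LTRs of MLT1E to MLT1O (23 names) and 741 were internal parts, whose names end in -int (27 names). RNA was sequenced from HEK293T, a human embryonic kidney cell line with the large T antigen of SV40. The U7 ASO group, labelled as a U7 snRNA knockdown, held 3 libraries of cells given a chemically modified chimeric antisense oligonucleotide (ASO) against U7 snRNA at 100 nM. The control ASO group, labelled WT, held 3 libraries of cells given an ASO against GFP. Both groups were transfected with Lipofectamine 2000, so neither was untreated, and by the design text each group's 3 libraries are biological replicates. The series asks, by its title, about U7 snRNA and the repression of HERV1/LTR12 elements and long intergenic non-coding RNAs. All values come from 1 cell line and from total RNA depleted of ribosomal RNA.

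MaLR elements spread with the help of proteins made by endogenous retroviruses of the ERVL type, and their internal parts do not code for an envelope. The group consists of the THE1, MST and MLT1 families, of which MLT1 is the oldest. An LTR carries the signals that start and end transcription, and some old LTR copies serve as promoters or enhancers of host genes. U7 snRNA is part of the particle that trims histone transcripts of dividing cells at their 3′ end. LTR12 elements are the LTRs of HERV9, a primate retrovirus, and many keep promoter activity in human cells.

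The tables held 2089822, 2348997 and 2819540 reads at repeat loci in U7 ASO replicates 1 to 3, against 2025985, 1926892 and 1980793 in control ASO replicates 1 to 3. They hold no gene rows, so neither the cell line nor histone transcripts could be checked. At the 16 loci of U7 itself there were 10, 4 and 6 reads in the U7 ASO libraries and 10, 6 and 12 in the control ASO libraries, too few to check the knockdown. Over all 14380 loci that passed the filter on low counts, 4.49% were raised and 0.473% lowered at an adjusted p under 0.05 (edgeR quasi-likelihood test, Benjamini-Hochberg adjustment). LTR12 and HERV9 loci made up 328 of the 645 raised loci. In such bulk samples, fewer cells with a transcript and less of it per cell cannot be told apart.

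The mean number of reads at MLT1 loci was slightly higher with the U7 ASO, but the groups overlapped. All MLT1 loci together held 12373, 13582 and 14329 CPM (counts per 1000000 reads) in the U7 ASO libraries, against 11282, 11413 and 12548 CPM in the control ASO libraries. The means were 13428 ± 987 and 11748 ± 696 CPM (SD, n = 3 each), a ratio of 1.14, and the lowest U7 ASO library lay below the highest control library. CPM were computed on reads summed over loci and scaled by the trimmed mean of M-values (TMM) factors of the fit to repeat names. As an unscaled share of all repeat reads, MLT1 took 1.26%, 1.41% and 1.43% in the U7 ASO libraries and 1.04%, 1.10% and 1.31% in the control ASO libraries. The exact 95% binomial intervals of these shares ran from 1.24 to 1.27% for the lowest U7 ASO library and from 1.30 to 1.33% for the highest control library. Such intervals, and the floors below, cover counting error only.

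The log2 ratios of the 3 classes lay between 0.15 and 0.27. LTRs of MLT1E to MLT1O held 6292, 6711 and 7246 CPM in the U7 ASO libraries and 5624, 5647 and 6122 CPM in the control ASO libraries, with a log2 ratio of means of 0.22. On this scale all U7 ASO libraries lay above all control libraries. As unscaled shares of repeat reads the groups overlapped, with 0.6404% in U7 ASO replicate 1 and 0.6409% in control replicate 3. They overlapped on the CPM scale too once the 8 raised loci of this class were left out (log2 ratio 0.16). LTRs of MLT1A to MLT1D held 5292, 6019 and 6085 CPM against 4933, 5152 and 5572 CPM, with a log2 ratio of 0.15 and overlapping groups. Internal parts were much rarer, at 788, 852 and 998 CPM in the U7 ASO libraries and 725, 615 and 854 CPM in the control ASO libraries. Their log2 ratio was 0.27, and U7 ASO replicates 1 and 2 lay below control replicate 3. The ratio fell to 0.17 when control replicate 2 was left out, to 0.18 when U7 ASO replicate 3 was, and to 0.11 without loci within 20 running numbers of a listed LTR12 or HERV9 locus. Sums over a class were given no p-value, and 3 libraries against 3 cannot give an exact permutation p below 0.1.

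The loci called raised, described below, were chosen for being higher with the U7 ASO, so their part in these differences is given only as a description. The 15 accounted for 25.2% of the difference between the group means over all MLT1 loci. The same loci accounted for 66.9% of the difference for internal parts, 27.8% for MLT1E to MLT1O and 10.3% for MLT1A to MLT1D. Loci within 20 running numbers of a listed LTR12 or HERV9 locus accounted for 41.5% of the difference over all MLT1 loci, although they were only 523 of the 16229. With those neighbours left out, the sum over MLT1E to MLT1O was 5635, 6275 and 6578 CPM with the U7 ASO and 5518, 5562 and 5985 CPM with the control ASO. The log2 ratio was then 0.12 and the groups overlapped.

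**Figure D1:**
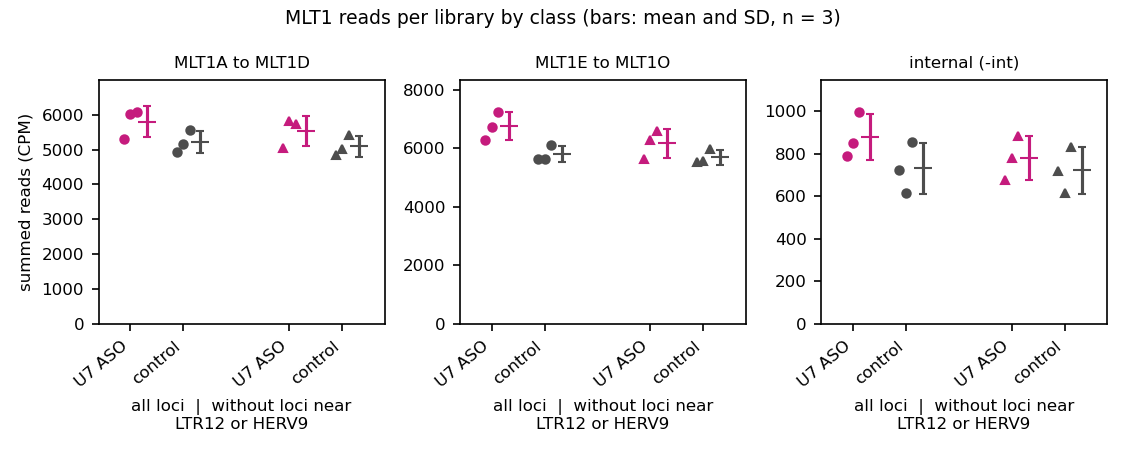
Summed MLT1 reads per library in CPM (linear axes from 0) for each class. Circles are sums over all loci and triangles are sums without loci within 20 running numbers of a listed LTR12 or HERV9 locus, with U7 ASO in pink left of control ASO in grey, and horizontal marks with bars giving mean and SD (n = 3). The circles of the groups are apart for MLT1E to MLT1O on this scale, whereas its triangles overlap.

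At the level of repeat names, MLT1J1 and its internal part MLT1J1-int rose, no MLT1 name fell, and most other names lay a little above 0. Of the 56 names, 52 passed the filter on low counts, and the 4 left out were MLT1E1A-int, MLT1L-int, MLT1N2-int and MLT1O-int. The 2 raised names compare with 1.52% raised and 1.03% lowered among all 2236 tested names (edgeR quasi-likelihood test, Benjamini-Hochberg adjustment). At an unadjusted p under 0.05, 7 MLT1 names were above 0 and 0 below, beside 6.93% and 7.65% of all tested names, and DESeq2 and limma-voom called 0 names lowered as well. Log2 fold changes were above 0 for 41 of the 52 names and below 0 for 11, with a median of 0.20, whereas among all tested names 1105 were above 0 and 1131 below, with a median of −0.01. In 15 names (28.8%) all U7 ASO libraries lay above all control libraries, which was so for 9.93% of all tested names. Among tested names, 8 of 9 in THE1, 8 of 13 in MST and 14 of 18 in MLT2 and HERVL were also above 0. MLT2 and HERVL are LTRs and internal parts of the ERVL type. The medians of these families were 0.23, 0.16 and 0.25, and all U7 ASO libraries lay above in 11.1%, 15.4% and 16.7% of their names.

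MLT1J1 held 913, 852 and 1058 reads in the U7 ASO libraries, against 272, 344 and 300 in the control ASO libraries. Its level was 385 ± 40.2 CPM with the U7 ASO and 158 ± 22.8 CPM with the control ASO (SD, n = 3 each), and the groups did not overlap. The log2 fold change was 1.28 (SE 0.21, 95% interval 0.85 to 1.72, edgeR adjusted p = 0.000616). MLT1J1-int held 190, 179 and 262 reads in the U7 ASO libraries and 26, 19 and 26 in the control ASO libraries, again without overlap. Its level was 85.4 ± 10.4 CPM against 12.2 ± 1.88 CPM, a log2 fold change of 2.80 (SE 0.34, edgeR adjusted p = 1.88e-05).

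The names with most reads changed little. Among MLT1A to MLT1D these were MLT1C at 1549 ± 19.1 CPM with the U7 ASO and 1397 ± 30.3 CPM with the control ASO, MLT1D at 1481 ± 180 against 1438 ± 130 CPM, and MLT1A0 at 1139 ± 159 against 883 ± 33.4 CPM. For MLT1C and MLT1A0 the U7 ASO libraries all lay above the control libraries, but the log2 fold changes of 0.15 (edgeR adjusted p = 0.740) and 0.37 (edgeR adjusted p = 0.324) did not pass. All 6 names of this class had values above 0, from 0.04 for MLT1D to 0.37 for MLT1A0, and none was called. Among MLT1E to MLT1O the most abundant were MLT1K at 874 ± 53.6 CPM against 859.9 ± 93.2 CPM, MLT1J at 771 ± 67.0 against 731 ± 19.9 CPM and MLT1L at 537 ± 76.7 against 471 ± 48.3 CPM. Their log2 fold changes were 0.02, 0.08 and 0.19, and the groups overlapped in each. In this class 22 of 23 names had a value above 0, the exception being MLT1F1 at −0.14 (edgeR adjusted p = 0.821). Beside MLT1J1, the groups did not overlap for 6 names of this class, MLT1E, MLT1E1, MLT1F, MLT1G, MLT1G3 and MLT1H. Their log2 fold changes ran from 0.40 for MLT1H to 0.90 for MLT1E and did not pass (edgeR adjusted p from 0.174 for MLT1F to 0.454 for MLT1G).

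Internal parts were the most scattered class, and the one with fewest reads. Of 23 tested names, 13 had a value above 0 and 10 below, from 2.80 for MLT1J1-int to −0.77 for MLT1E3-int. The 3 with most reads were MLT1C-int at 100.1 ± 2.73 CPM with the U7 ASO and 77.7 ± 11.7 CPM with the control ASO, MLT1D-int at 76.2 ± 12 against 95.2 ± 27.7 CPM, and MLT1B-int at 93.6 ± 13.4 against 68.5 ± 42.7 CPM. Their log2 fold changes of 0.37, −0.32 and 0.45 did not pass (edgeR adjusted p = 0.558, 0.686 and 0.625). Beside MLT1J1-int, 5 names were higher in every U7 ASO library than in any control library, MLT1A1-int, MLT1C-int, MLT1H-int, MLT1H2-int and MLT1J-int. Their log2 fold changes ran from 0.36 for MLT1J-int to 0.99 for MLT1A1-int and did not pass (edgeR adjusted p from 0.195 for MLT1H-int to 0.648 for MLT1J-int). MLT1A-int and MLT1E2-int lay lower in every U7 ASO library than in any control library, at −0.66 and −0.75, and did not pass either (edgeR adjusted p = 0.428 and 0.465).

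**Figure D2:**
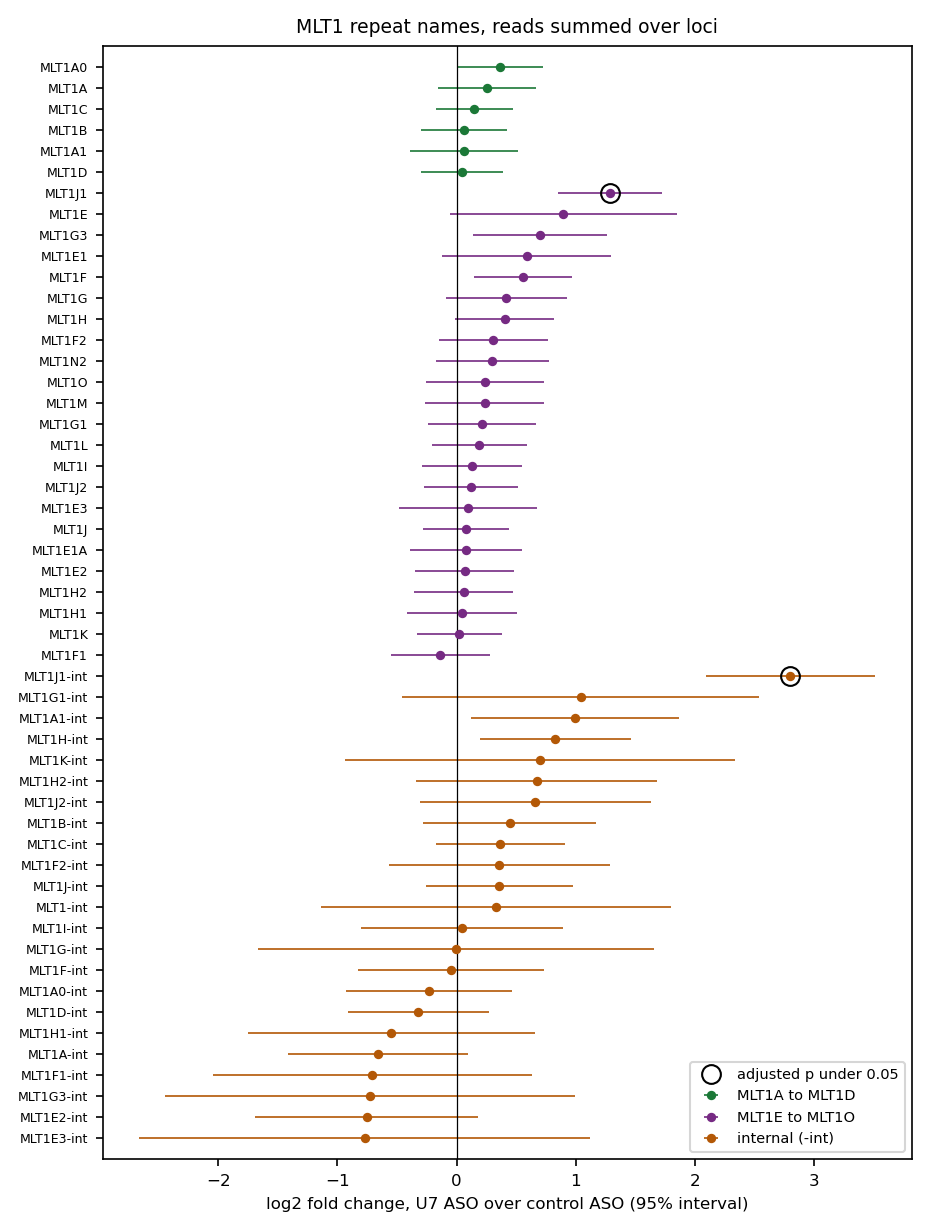
Log2 fold change of U7 ASO over control ASO with its 95% interval for the 52 tested MLT1 names, reads summed over loci, ordered by value within each class. Only MLT1J1 (1.28) and MLT1J1-int (2.80) are ringed as passing the adjusted p of 0.05, and 41 of the 52 points lie right of 0.

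The rise of both MLT1J1 names came largely from 1 place. MLT1J1_dup115_4777836, MLT1J1-int_dup16_4777837 and MLT1J1_dup116_4777838 carry consecutive running numbers, that is, an LTR, an internal part and a second LTR in the order of the repeat annotation. The first LTR held 153, 180 and 136 reads in the U7 ASO libraries, against 0, 2 and 0 in the control ASO libraries. The internal part held 176, 134 and 212 reads in the U7 ASO libraries and 0 in every control ASO library. The second LTR held 213, 129 and 257 reads in the U7 ASO libraries, against 4, 0 and 14 in the control ASO libraries.

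All 3 loci were high in each U7 ASO library and at or near 0 in each control library. The ratio of depth-scaled reads was 215 for the first LTR, with an exact counting interval from 59.2 to 1781, and its edgeR adjusted p was 1.92e-05. The internal part was at least 160-fold higher, taking 3 reads over the 3 control libraries as the limit that a count of 0 allows (edgeR adjusted p = 9.68e-06). Most counts in these tables are even, a pattern that counting each mate separately would give, and then a count of 0 would allow 6 reads. That would make the bound 79.8-fold here, lower every other bound below in the same proportion, and leave the counting intervals too narrow. The second LTR had a log2 fold change of 4.91 (SE 0.69, edgeR adjusted p = 0.000424). These loci supplied 63.0% of the difference in MLT1J1 and 97.2% of that in MLT1J1-int.

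Without the 3 loci, MLT1J1-int held 6.58, 18.5 and 17.8 CPM in the U7 ASO libraries and 13.9, 10.2 and 12.5 CPM in the control ASO libraries, and its groups overlapped (log2 fold change 0.23, edgeR adjusted p = 0.910). The remaining 256 MLT1J1 loci still held 257, 223 and 237 CPM in the U7 ASO libraries, against 143, 184 and 138 CPM in the control ASO libraries, without overlap. They include MLT1J1_dup180_3107275, also called raised, with 62, 21 and 47 reads in the U7 ASO libraries and 0 in the control ASO libraries. They also include MLT1J1_dup114_4777835, the listed repeat just before the 3 loci, described in the next paragraph. The log2 fold change of that remainder was 0.62 (95% interval 0.17 to 1.08), and it did not pass the adjustment over all names (edgeR adjusted p = 0.169). This setting was chosen after the loci had been seen.

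The repeats on either side of these loci were raised too. LTR12C_dup44_4777840, which lies 2 running numbers past the second LTR, held 641, 380 and 461 reads in the U7 ASO libraries and 14, 8 and 2 in the control ASO libraries (log2 fold change 5.81, edgeR adjusted p = 1.15e-05). Between them AluSx1_dup5948_4777839, a short interspersed element, held 166, 82 and 102 reads against 10, 1 and 1 (log2 fold change 4.72, edgeR adjusted p = 0.000769). On the other side MLT1J1_dup114_4777835 held 4, 8 and 20 reads with the U7 ASO and 1, 2 and 0 with the control ASO, too few to be tested. AluSp_dup2737_4777834 held 59, 16 and 116 reads with the U7 ASO and 0 in every control ASO library (edgeR adjusted p = 0.00113). The next listed repeats on that side held at most 10 reads in any library. Whether reads at these neighbours belong to the same transcript was not tested, since the tables carry neither coordinates nor read pairs.

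**Figure D3:**
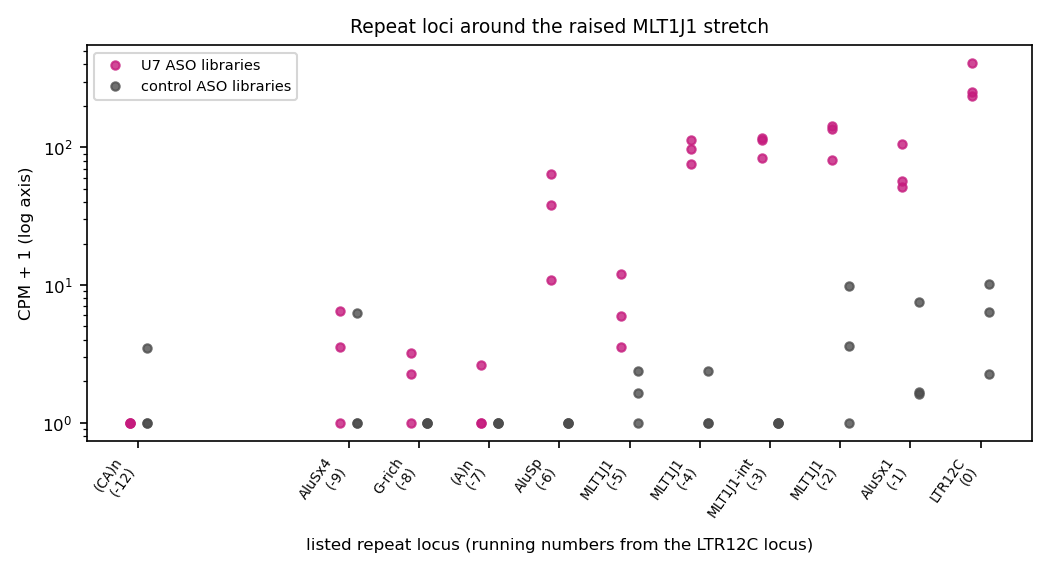
CPM + 1 on a log axis at the listed repeat loci around the raised MLT1J1 loci, one dot per library with U7 ASO in pink left of control ASO in grey, placed by running numbers from the LTR12C locus at 0. U7 ASO libraries lie far above control ASO libraries from AluSp at −6 to LTR12C at 0, except at the sparsely read MLT1J1 locus at −5, and all libraries are low farther left.

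An LTR, an internal part and an LTR of the same MLT1 name stood next to each other in this way at 7 places. This was the only one with a called locus and the only one with all 3 loci tested. The other 6 places together held 30, 94 and 80 reads in the U7 ASO libraries, against 40, 11 and 86 reads in the control ASO libraries, with overlapping groups.

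Single MLT1 loci were mostly too sparse to test. Of the 16229 listed loci, 330 passed the filter (2.03%): 134 in MLT1A to MLT1D, 164 in MLT1E to MLT1O and 32 internal parts. Reads were seen in only 1 of the 6 libraries at 67.6% of MLT1 loci and in all 6 at 1.79%. Among the 330, 15 were raised (4.55%), 1 was lowered (0.303%) and 314 did not pass, beside the 4.49% and 0.473% of all tested loci. Outside LTR12 and HERV9, 2.28% of tested loci were raised and 0.489% lowered. A locus with no control reads could pass the filter only through its U7 ASO libraries and so had to differ, which was so for 13 of the 330 tested loci and for 12 of the 15 raised ones. In 62 loci (18.8%) the groups did not overlap, against 20.6% of all tested loci.

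By class, 8 loci of MLT1E to MLT1O, 5 of MLT1A to MLT1D and 2 internal parts were raised. The lowered locus belonged to MLT1A to MLT1D. No locus of the other 2 classes was called lowered by edgeR, with 2 below 0 at an unadjusted p under 0.05 in MLT1E to MLT1O and 1 among internal parts. The median log2 fold change was 0.22 over the tested MLT1 loci and 0.06 over all tested loci. This order turned round without U7 ASO replicate 2, at 0.04 for MLT1 and 0.09 for all, and without control replicate 1, at 0.08 and 0.11. In the fit to all 6 libraries the median was 0.29 for MLT1E to MLT1O, 0.48 for internal parts and −0.02 for MLT1A to MLT1D.

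**Figure D4:**
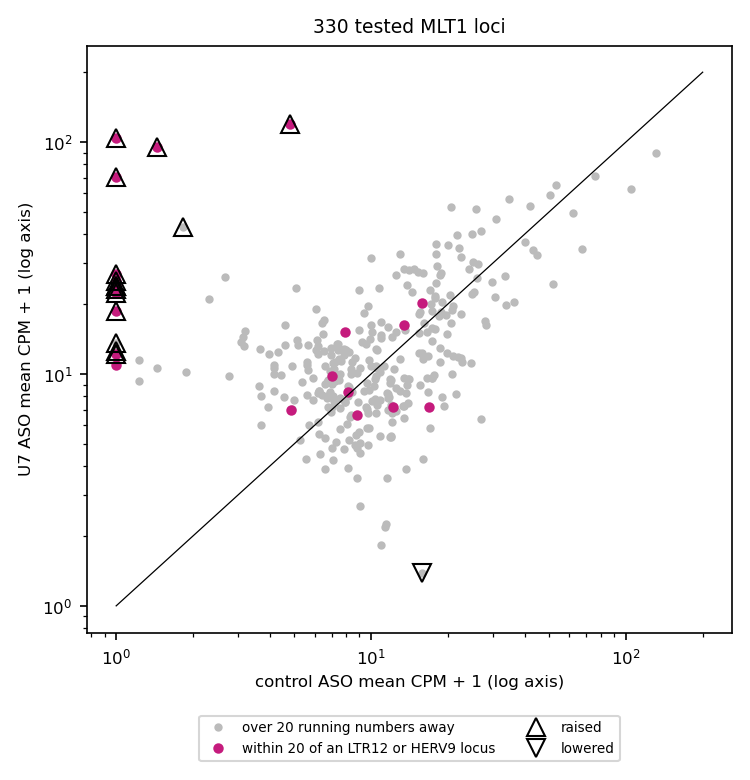
Mean CPM + 1 with the U7 ASO (vertical) against mean CPM + 1 with the control ASO (horizontal), both log axes, for the 330 tested MLT1 loci, n = 3 libraries each. Of the 15 raised loci (upward triangles) 12 sit at 0 control reads on the left edge, and the 1 lowered locus (downward triangle) sits at the bottom; pink dots are loci within 20 running numbers of a listed LTR12 or HERV9 locus.

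Beside the MLT1J1 loci above, 6 further LTRs of MLT1E to MLT1O were raised, and all 6 held 0 reads in every control ASO library. MLT1J2_dup2_3224150 held 147, 86 and 116 reads in the U7 ASO libraries and was at least 107-fold higher (edgeR adjusted p = 3.33e-05). It lies 2 running numbers from LTR12C_dup2_3224152, with 364, 133 and 353 reads in the U7 ASO libraries and 0 in the control ASO libraries. Summed over its loci, the name MLT1J2 did not pass. It held 372 ± 25.8 CPM with the U7 ASO and 342 ± 17.6 CPM with the control ASO (log2 fold change 0.12, edgeR adjusted p = 0.841).

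MLT1J1_dup180_3107275, another raised LTR of MLT1J1, held 62, 21 and 47 reads in the U7 ASO libraries and was at least 39.7-fold higher (edgeR adjusted p = 0.00148). Its neighbour 6 running numbers away, LTR12C_dup66_3107281, had reads in every control library, at 333, 261 and 300 with the U7 ASO and 10, 8 and 26 with the control ASO. MLT1H_dup265_3579595 held 50, 34 and 36 reads in the U7 ASO libraries and was at least 36.7-fold higher (edgeR adjusted p = 0.00137). The LTR12F locus 4 running numbers from it held 0, 2 and 12 reads with the U7 ASO and 0 with the control ASO. The MLT1H locus thus had more reads than the nearest LTR12 locus in each U7 ASO library, the reverse of what was seen at MLT1J2_dup2_3224150.

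MLT1G3_dup3_19740 held 53, 12 and 51 reads in the U7 ASO libraries and was at least 35.5-fold higher (edgeR adjusted p = 0.0033), with U7 ASO replicate 2 well below the others. It was the only tested locus of its name. LTR12C_dup5_19746, 6 running numbers away, held 13, 36 and 45 reads with the U7 ASO and 0, 14 and 0 with the control ASO and did not pass (edgeR adjusted p = 0.427). MLT1H_dup674_1087680 held 18, 17 and 21 reads in the U7 ASO libraries, was at least 17.1-fold higher, and passed narrowly (edgeR adjusted p = 0.0492). An untested LTR12C locus is the next repeat in the annotation, with 17, 0 and 16 reads in the U7 ASO libraries and 0 in the control ASO libraries.

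MLT1L_dup805_399734 lay in a longer run of raised repeats. It held 25, 33 and 51 reads in the U7 ASO libraries, 0 in the control ASO libraries, and was at least 33.3-fold higher (edgeR adjusted p = 0.00225). LTR12C_dup162_399724, 10 running numbers before it, held 1059, 550 and 695 reads with the U7 ASO and 0, 0 and 20 with the control ASO. Of the 8 tested repeats within 20 running numbers 6 were raised. These included L3b_dup960_399728, an ancient LINE copy, and AluJo_dup6151_399726. A second MLT1L locus next to it, MLT1L_dup806_399735, held 19, 12 and 19 reads in the U7 ASO libraries and 0 in the control ASO libraries but did not pass (edgeR adjusted p = 0.0811). MLT1A0_dup1343_399732, in the same run, held 11, 24 and 38 reads with the U7 ASO and 0, 14 and 18 with the control ASO, and overlapped.

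The 5 raised loci of MLT1A to MLT1D were smaller, with 16 to 46 reads in each U7 ASO library and 0 in every control ASO library. MLT1A0 supplied 3 of them. MLT1A0_dup411_3565123 held 36, 34 and 46 reads in the U7 ASO libraries and was at least 35.5-fold higher (edgeR adjusted p = 0.00148), 4 running numbers from the raised LTR12C_dup56_3565119. MLT1A0_dup887_3132275 held 36, 30 and 46 reads and was at least 34.2-fold higher (edgeR adjusted p = 0.00175), 4 running numbers from an LTR12C locus with too few reads to be tested. MLT1A0_dup213_5122415 had no LTR12 or HERV9 locus within 100 running numbers. It held 20, 18 and 20 reads and was at least 17.7-fold higher (edgeR adjusted p = 0.041).

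MLT1C_dup1018_2418701 held 37, 26 and 25 reads in the U7 ASO libraries and was at least 26.9-fold higher (edgeR adjusted p = 0.00543). The next repeat in the annotation is LTR12C_dup128_2418702, with 181, 90 and 64 reads with the U7 ASO and 2, 0 and 4 with the control ASO. MLT1D_dup122_2717817 held 16, 18 and 30 reads and was at least 19.6-fold higher (edgeR adjusted p = 0.0281), with the nearest listed LTR12 locus 240 running numbers away.

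The lowered locus was MLT1C_dup4_4437643, with 0, 1 and 1 reads in the U7 ASO libraries and 32, 26 and 10 in the control ASO libraries. Its groups did not overlap, and the log2 fold change was −4.99 (SE 1.25, edgeR adjusted p = 0.0306). The ratio of depth-scaled reads, control ASO over U7 ASO, was 37.1 with an exact counting interval from 9.88 to 312. A raised locus, LTR12C_4437533, lies 110 running numbers away. The call was lost in 9 of the 14 other settings that tested it.

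Besides MLT1J1-int_dup16_4777837, the raised internal part was MLT1B-int_dup8_1897460, which lay far from LTR12 and HERV9, with the nearest listed locus 1619 running numbers away. It held 56, 61 and 96 reads in the U7 ASO libraries, against 0, 0 and 4 in the control ASO libraries, and the groups did not overlap. The log2 fold change was 5.49 (SE 0.88, edgeR adjusted p = 0.00118). An AluSx locus and an L2a locus within 20 running numbers of it were raised as well. The name MLT1B-int did not pass.

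The most abundant MLT1 loci were, with 2 exceptions, not raised. The exceptions were MLT1J1_dup116_4777838 and MLT1J1-int_dup16_4777837, at 118 ± 33.5 and 103 ± 17.9 CPM with the U7 ASO and 3.796 ± 4.51 and 0 CPM with the control ASO. For single loci, CPM were computed over reads at tested loci, so they are not on the scale of the sums above. The locus with the highest mean, MLT1J2_dup185_2823122, held 184, 139 and 114 reads in the U7 ASO libraries and 212, 177 and 210 in the control ASO libraries (88.3 ± 27.1 against 129.9 ± 9.45 CPM, log2 fold change −0.56, edgeR adjusted p = 0.579). MLT1F1_dup6_17841 held 151, 79 and 75 reads against 148, 139 and 194 (log2 fold change −0.75, edgeR adjusted p = 0.451). Neither passed. The U7 ASO libraries all lay below the control libraries for the MLT1J2 locus and overlapped them for the MLT1F1 locus.

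In MLT1A to MLT1D the leading loci were MLT1C_dup196_2750170 at 70.7 ± 25.5 CPM with the U7 ASO and 74.6 ± 17.1 CPM with the control ASO, and MLT1C_dup372_5011080 at 58.2 ± 12.1 against 49.6 ± 6.10 CPM. Both overlapped between groups. MLT1B_dup9_4913649 held 70, 42 and 56 reads in the U7 ASO libraries, all below the 81, 110 and 113 of the control ASO libraries, with a log2 fold change of −0.97 that did not pass (edgeR adjusted p = 0.251). Among internal parts, MLT1D-int_dup4_2523631 at 48.3 ± 11.2 against 61.1 ± 23.7 CPM and MLT1C-int_dup23_2903514 at 21.02 ± 11.2 against 23.8 ± 4.45 CPM overlapped too.

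Raised MLT1 loci were often neighbours of LTR12 or HERV9 loci in the order of the annotation. The tables give no coordinates, so nearness was counted in running numbers, the last number of a locus name, within stretches where that number follows the copy numbers. Of the 15 raised loci, 12 lay within 20 running numbers of a listed LTR12 or HERV9 locus, and 8 lay within 20 of one that was itself raised. The 3 consecutive MLT1J1 loci are in both counts and share the neighbour LTR12C_dup44_4777840, so the loci counted are not all separate places. Only 22 of the 330 tested loci were within 20 running numbers of a listed LTR12 or HERV9 locus, and 11 within 20 of a raised one. Among the other 308 tested loci 3 were raised (0.974%), beside 154 of 13196 (1.17%) among equally distant loci of all other repeats outside LTR12 and HERV9. Outside MLT1, LTR12 and HERV9, 148 of 302 raised loci lay within 20 running numbers of a listed LTR12 or HERV9 locus. Tested loci of those other repeats were that near less often to begin with, at 391 of 13587 (2.88%) against 6.67% in MLT1. Of these near tested loci, 37.9% were raised among the other repeats and 54.5% in MLT1. With only raised LTR12 and HERV9 neighbours counted, 114 of those 302 raised loci were near (37.7%), beside 53.3% in MLT1. Of tested loci near such a neighbour, 114 of 162 were raised among the other repeats (70.4%) and 8 of 11 in MLT1 (72.7%). Differences between the shares in MLT1 and those elsewhere were not tested. Of the 15 raised MLT1 loci 12, not all of them near, held no control reads. They passed the filter only through their U7 ASO libraries and so had to differ. The contrast between near and far loci is therefore a description and not a test.

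All 8 raised loci of MLT1E to MLT1O were that near to a listed locus, as were 3 of the 5 in MLT1A to MLT1D and 1 of the 2 internal parts. Nearness did not always go with a call. The 22 near tested loci had a median log2 fold change of 7.09, and 10 of them were not called raised. MLT1L_dup806_399735, described above, was among these, with 19, 12 and 19 reads against 0 (edgeR adjusted p = 0.0811). It too could pass the filter only through its U7 ASO libraries. Another was MLT1H2_dup204_680235, 3 running numbers from a listed locus, with 24, 4 and 8 reads in the U7 ASO libraries and 19, 2 and 12 in the control ASO libraries. MLT1J_dup1008_371393, equally near, held 26, 12 and 40 reads against 14, 12 and 32. Both overlapped between groups.

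When all listed MLT1 loci were summed by distance, tested or not, the ratio of U7 ASO to control ASO means was largest beside LTR12 and HERV9 loci and smaller in each range farther away. At 1 to 5 running numbers, 214 loci held 678, 441 and 693 CPM in the U7 ASO libraries, against 59.4, 54.2 and 74.3 CPM in the control ASO libraries, a ratio of means of 9.64. At 6 to 20 running numbers, 309 loci held 331, 252 and 427 CPM against 153, 159.9 and 230 CPM, a ratio of 1.86. At 21 to 100, 1100 loci held 795, 855 and 914 CPM against 665, 628 and 627 CPM, a ratio of 1.34. In these first 3 ranges the U7 ASO libraries all lay above the control libraries when the classes were summed together. At 6 to 20 running numbers the groups overlapped for MLT1A to MLT1D (ratio 1.41) and for internal parts (ratio 1.16). They did not overlap there for MLT1E to MLT1O (ratio 2.52). Without its raised loci the second range had a ratio of 1.59 and overlapped. Beyond 100, where 14606 of the 16229 loci lay, the values were 10569, 12035 and 12294 CPM with the U7 ASO and 10405, 10571 and 11617 CPM with the control ASO, a ratio of 1.07 with overlapping groups.

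The nearest range did not rest on the called loci alone. Without the 3 consecutive MLT1J1 loci its ratio was 6.52, and without any raised locus it was 4.56, from 271, 165 and 375 CPM with the U7 ASO and 57.3, 53.1 and 67.5 CPM with the control ASO. By class the ratio was 11.7 for MLT1E to MLT1O, 4.60 for MLT1A to MLT1D and 24.1 for the 9 internal parts in that range. Without raised loci these ratios were 5.81, 2.85 and 5.48, and the groups then overlapped for the internal parts. Leaving out raised loci was a setting chosen after their values were seen. For all other loci outside LTR12 and HERV9, with raised loci kept in, the ratios were 4.01, 1.58, 0.882 and 0.940 over the 4 ranges. The like MLT1 ratios, with raised loci kept in, are 9.64, 1.86, 1.34 and 1.07. A locus is listed only where a library holds a read, so which LTR12 and HERV9 loci define these distances depends in part on the U7 ASO libraries.

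**Figure D5:**
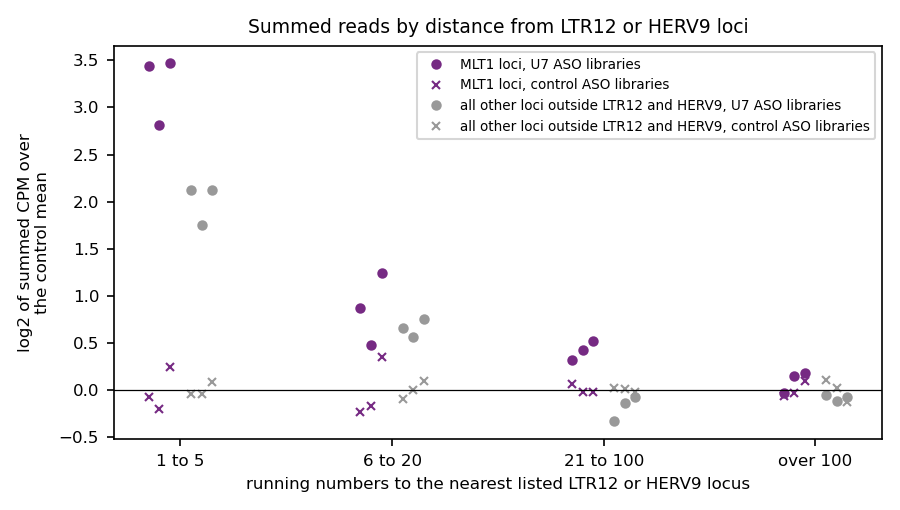
Log2 of summed CPM over the mean of the control ASO libraries, by running numbers to the nearest listed LTR12 or HERV9 locus, with one dot per U7 ASO library and one cross per control ASO library. MLT1 loci (purple) are highest at 1 to 5 running numbers, where the log2 of their ratio of means is 3.27, against 0.10 beyond 100. For all other loci outside LTR12 and HERV9 (grey) it is 2.00 in the first range and −0.09 in the last.

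More MLT1 loci held a read with the U7 ASO. They numbered 3996, 5507 and 5492 in the U7 ASO libraries and 3274, 3966 and 3763 in the control ASO libraries. Since the U7 ASO libraries were deeper, the number expected after thinning each library to 1926892 reads was computed, which gave 3952, 5365 and 5221 loci with the U7 ASO and 3252, 3966 and 3753 with the control ASO. U7 ASO replicate 1 then lay just below control replicate 2, and the others lay above every control library. The ratio of means was 1.33 for MLT1 and 1.30 for all listed loci. Their share of the loci with a read was 3.37%, 3.43% and 3.49% in the U7 ASO libraries and 3.39%, 3.29% and 3.45% in the control ASO libraries, which overlapped.

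Reads in all 3 U7 ASO libraries and in no control library were seen at 144 MLT1 loci (0.887%), and the converse at 47 (0.290%). Over all listed loci these shares were 1.10% and 0.319%. Among the 523 MLT1 loci within 20 running numbers of a listed LTR12 or HERV9 locus they were 35 loci (6.69%) and 1 locus. Among the 15706 farther MLT1 loci they were 109 (0.694%) and 46 (0.293%). These counts were not scaled for depth.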

How the data were processed

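Each library came as a deposited table of counts, 1 row per repeat locus. The submitters' processing notes name FastQC 0.11.5, STAR 2.5.3a, Subread with featureCounts 1.5.0-p1, and GRCh38. No source used here gives the repeat annotation, the strand setting, or the handling of pairs and of reads mapping to several places. Reads from near-identical copies could be split or dropped, and antisense transcripts are not separated. Of the MLT1 counts above 0, 75.6% to 80.7% were even, a pattern that counting each mate separately would give, so counts are called reads and not fragments. No coordinates or sequences were used.

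Counts were fitted with edgeR 4.0.16 in R 4.3.3 (TMM, filterByExpr with minimum count 10 and total 15, quasi-likelihood test, two-sided, no covariate), over all loci and over reads summed by repeat name, with Benjamini-Hochberg adjustment over all tested. A call needs an adjusted p under 0.05. The locus filter kept 68.4% to 79.3% of reads per library. Floors take 3 reads over the group at 0 and the reads of the other group as observed. They therefore leave out counting error in that other group and the spread between replicates. Copy numbers within a repeat name restarted along the running numbers, which 23 break points accounted for, and distances stay within the resulting 24 stretches. DESeq2 1.42.0 and limma 3.58.1 served as alternatives. The scripts were tested on simulated data. Groups and replicate numbers come from the sample titles, and the labels name no batch. No 2 libraries of a group agreed within sampling noise (chi-square per degree of freedom 6.82 to 14.6). Named were all called loci and names, and the 3 loci and 3 names of each class with most reads. Uncalled names whose groups did not overlap, and uncalled loci beside raised or LTR12 loci, were named after their values were seen. Members, lists and distances were chosen with earlier results of these data known.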

Additional observations from a re-analysis of the deposited data

How the results depend on the processing

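The count of 15 raised MLT1 loci was 10 to 21 under the other scalings, filters and tools, and 6 to 16 when 1 library was left out: 6 without U7 ASO replicate 1 and 9 without U7 ASO replicate 3, all among the 15. Fits without a library also let more loci pass the filter, with 523 to 562 MLT1 loci tested in place of 330. The 1 lowered locus became 0 with no filter, with CPM of 10 in 3 libraries, with limma-voom, with the replicate block and with LTR12 and HERV9 loci left out of the fit, and was 0 or 1 when a library was left out. MLT1J1 and MLT1J1-int were raised in all 15 other fits of the full name table, and 0 MLT1 names were raised once the 3 consecutive MLT1J1 loci were left out. The log2 ratio for MLT1E to MLT1O, 0.22, was 0.1155 without loci within 20 running numbers of a listed LTR12 or HERV9 locus and 0.0942 without those within 100, the last chosen after seeing the data, and 0.1774 to 0.2781 when a library was left out. For MLT1A to MLT1D, 0.15, it was 0.1067 to 0.2242 over the same settings, and for internal parts, 0.27, it was 0.0754 to 0.397. The 8 raised loci near a raised LTR12 or HERV9 locus were 5 to 10 when a library was left out, 5 of them without U7 ASO replicate 1. Called in every setting were MLT1J2_dup2_3224150, MLT1B-int_dup8_1897460 and the 3 consecutive MLT1J1 loci. MLT1A0_dup411_3565123, MLT1A0_dup887_3132275, MLT1H_dup265_3579595 and MLT1J1_dup180_3107275 lost their call without U7 ASO replicate 1, and MLT1L_dup805_399734 without U7 ASO replicate 3. MLT1G3_dup3_19740 and MLT1C_dup1018_2418701 lost theirs under limma-voom and when U7 ASO replicate 1 or 3 was left out, the MLT1C locus also without U7 ASO replicate 2. MLT1D_dup122_2717817, MLT1A0_dup213_5122415 and MLT1H_dup674_1087680 held in 4, 3 and 2 of 14 alternatives. Upper-quartile scaling moved the median of all tested loci to −0.09 and that of MLT1 loci to 0.06, and MLT1 loci had the lower median of the 2 without U7 ASO replicate 2 and without control replicate 1. Deviations of same-numbered libraries had correlations of 0.06, −0.04 and 0.03, and those of differently numbered ones ran from −0.07 to 0.05. Such small values from noisy counts cannot decide whether the numbers pair the libraries. With the replicate block 13 MLT1 loci and 3 MLT1 names were raised, and 133 names were called over the whole table against 57 without it. Over all loci, 713 calls became 420 with limma-voom, 313 without U7 ASO replicate 1 and 388 without U7 ASO replicate 3. With LTR12 and HERV9 loci left out of the fit 321 were called. The main fit called 317 raised and 68 lowered loci outside LTR12 and HERV9. Over all names, 57 calls became 122 without U7 ASO replicate 1 and 33 without U7 ASO replicate 3. The causes were not tested. Depth limits single loci, since only 2.03% of MLT1 loci passed the filter.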

Other observations

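Counts for THE1 and MST, the other MaLR families, and for MLT2 and HERVL, the LTRs and internal parts of the ERVL type, were as follows. Of 103 tested THE1 loci 6 were raised, of 90 tested MST loci 5, and of 53 tested MLT2 and HERVL loci 4, and edgeR called 0 lowered in each, with 1, 1 and 2 below 0 at an unadjusted p under 0.05. Their median log2 fold changes were 0.37, 0.19 and 0.15, beside 0.22 for MLT1. Summed over all loci, MST held 4513, 4690 and 4608 CPM in the U7 ASO libraries and 3530, 3489 and 3862 CPM in the control ASO libraries, without overlap, and THE1 held 3457, 4156 and 4517 CPM against 3412, 3394 and 3847 CPM, with overlap. MLT2 and HERVL held 2178, 2258 and 2337 CPM against 1685, 1717 and 2054 CPM, without overlap. The ratios of means were 1.27, 1.14 and 1.24, beside 1.14 for MLT1. Differences between the families were not tested.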
